A study of Homo sapiens with 6 samples.

Results

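The 10 genes followed here through 3 comparisons in Kasumi-1 cells are described in earlier work as raised by AML1-ETO: POU4F1, UBASH3B, TRH, JUP, CAV1, ROBO1, PTGS2, TRIO, PAX5 and ADRB1. They were chosen by symbol, and 11 of the 62016 rows of each deposited table carry these 10 symbols, since JUP has a second row on a patch scaffold that is listed at 0 in the JMJD1C tables. Kasumi-1 is an established human myeloblast line from acute myeloid leukemia that carries the AML1-ETO fusion. The groups were cells given JMJD1C shRNA63, cells given JMJD1C shRNA95 and cells given a control shRNA, with 2 libraries each, and all 3 groups had been infected for 4 days with pLKO viruses made in 293T cells. A further deposited comparison sets an AML1-ETO shRNA against its own control shRNA, 1 library each, both from an earlier series. Only its fold changes and tests are used here, and it compares those libraries, not the conditions, with no replicate check. The tables ask how depletion of JMJD1C, and separately of the fusion, changes RNA levels. Separate cultures are not named in the labels for the 2 libraries of a group. The p-values of the JMJD1C comparisons therefore measure only how far these libraries spread, which may be technical. With 1 library each, the AML1-ETO comparison holds no spread within a group, so its p-values and intervals do not measure one.

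AML1-ETO joins the DNA-binding domain of the transcription factor RUNX1 to most of RUNX1T1 and is the product of a recurrent chromosomal translocation. It is best known for repressing genes of myeloid maturation, but it also sits at genes that are more active in these leukemias than in other myeloid cells, in a complex with E proteins (TCF3, TCF12), LYL1, LMO2 and LDB1. JMJD1C belongs to the KDM3 family of JmjC-domain proteins and has been studied as a coactivator that works with this complex. The genes followed here have little in common in their normal roles. They encode a hormone precursor, a neuronal and a B cell transcription factor, junction and membrane proteins, signalling enzymes and receptors, and many of them are usually silent in blood cells.

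UBASH3B, TRH and JUP are the members whose values the results turn on, so their promoters are shown. Each line gives the 250 bases before a RefSeq gene start, on the strand of the gene, from the RefSeq table of build GRCh38.p14. TRH lies at chr3:129974470-129974719 on the plus strand, UBASH3B at chr11:122655472-122655721 on the plus strand, and JUP has a pair of listed starts, at chr17:41786712-41786961 and chr17:41785977-41786226 on the minus strand. Capitals mark TGNGGT and CAGNTG on either strand. TGNGGT allows any base at N and is a wider pattern than TGTGGT or TGCGGT, the core that RUNX proteins recognise. The TGNGGT matches marked below read TGAGGT or TGGGGT on the matching strand, so none holds that core itself. CAGNTG is a form of the E-box that E proteins recognise.
TRH: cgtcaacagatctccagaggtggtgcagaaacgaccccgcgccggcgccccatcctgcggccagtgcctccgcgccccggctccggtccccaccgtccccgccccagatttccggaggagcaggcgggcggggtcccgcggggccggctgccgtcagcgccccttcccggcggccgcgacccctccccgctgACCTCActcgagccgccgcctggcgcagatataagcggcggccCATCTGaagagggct
UBASH3B: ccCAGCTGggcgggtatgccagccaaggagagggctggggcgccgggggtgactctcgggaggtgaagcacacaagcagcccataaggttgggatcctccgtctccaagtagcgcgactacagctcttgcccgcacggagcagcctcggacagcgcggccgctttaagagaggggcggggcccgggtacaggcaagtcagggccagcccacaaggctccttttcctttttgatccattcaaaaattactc
JUP, upstream start: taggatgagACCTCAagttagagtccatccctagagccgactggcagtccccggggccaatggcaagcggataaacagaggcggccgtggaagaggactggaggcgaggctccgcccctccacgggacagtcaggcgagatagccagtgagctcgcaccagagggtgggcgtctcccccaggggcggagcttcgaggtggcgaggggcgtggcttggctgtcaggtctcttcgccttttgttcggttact
JUP, downstream start: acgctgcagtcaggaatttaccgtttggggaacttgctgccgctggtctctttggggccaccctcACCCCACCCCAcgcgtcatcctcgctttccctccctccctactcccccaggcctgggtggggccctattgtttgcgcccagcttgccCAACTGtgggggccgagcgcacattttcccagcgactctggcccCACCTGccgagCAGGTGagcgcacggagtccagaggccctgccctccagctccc

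The TRH window holds 1 TGNGGT match and 1 CAGNTG match, and the UBASH3B window holds a CAGNTG match but no TGNGGT. The upstream JUP window holds 1 TGNGGT match. The downstream JUP window holds 3 CAGNTG matches and 2 TGNGGT matches, which overlap by their end base. POU4F1, whose window is not printed, holds 3 CAGNTG matches and no TGNGGT. All 10 genes had promoters in the table, 14 windows in all, and windows of the same gene can overlap. Counted over the full window of 300 bases, which runs 50 bases past the gene start, TGNGGT was found in 6 of these 14 windows, or 42.9%, against 43.2% of 35116 windows of all genes. CAGNTG was found in 35.7% of the members' windows against 49.9% of all, and GGAAG, the core that ETS factors recognise, in 64.3% against 71.9%. These matches describe letters in short windows and no test was made of them.

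Levels are in FPKM, fragments scaled to the length of the transcript and to the size of the library, so genes can be set side by side on it. Each JMJD1C table holds 1 FPKM per group, made by the authors from both libraries, and no value per library. FPKM was scaled within each table, the median gene having a control level 1.03 times as high in the shRNA63 table as in the shRNA95 table, and levels were compared within a table only. A gene is called where the authors' deposited q-value is under 0.05. The error of a log2 fold change is its size divided by the authors' test statistic, and intervals are 95% intervals from that error. The depth is unknown, since the tables give no read counts. Among untested low genes the log2 fold change seen most often, 0.34, 0.50 and 0.06 in the authors' deposited tables, would put the depth of the shRNA group at 0.79, 0.71 and 0.96 times that of its control for shRNA63, shRNA95 and the AML1-ETO shRNA, if these genes had equal reads.

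JMJD1C mRNA was called lower with shRNA63, at 45.1% of control. For shRNA95 it was at 85.3% of control and was not called, so every direction given for shRNA95 rests on its label. RUNX1T1, a part of the fusion, had a log2 fold change of -1.04 (error 0.87, p = 0.135) with the AML1-ETO shRNA and no call in the authors' deposited table. Of 6 myeloblast markers, CD34, KIT, CD33, PTPRC and AZU1 were at 5 FPKM or more in every group of the JMJD1C tables, and MPO was listed at 0 with the status HIDATA, which Cuffdiff gives to a locus with too many fragments to estimate. PTPRC (CD45) was called higher with both hairpins, at 23.0 FPKM with shRNA63 against 7.50 FPKM in the control and at 44.7 FPKM with shRNA95 against 7.26 FPKM in the control. AZU1 was also called higher with both hairpins, with log2 fold changes of 1.32 and 0.76 in the authors' deposited tables, and CD33 with shRNA63, at 0.83 in the authors' deposited table. KIT was called lower with shRNA63, at 133.8 FPKM against 245.2 FPKM in the control. It was below control without a call in the other comparisons. The log2 fold changes of KIT there were -0.52 with shRNA95 (p = 0.00790) and -0.96 with the AML1-ETO shRNA in the authors' deposited tables. CD34 went in different directions, with log2 fold changes of -0.55 with shRNA63 (p = 0.00450, not called), 0.77 with shRNA95 (called higher) and -2.15 with the AML1-ETO shRNA (called lower) in the authors' deposited tables. Their part in the members' values was not tested. Of 4 endothelial markers, PECAM1 was not found by its symbol, and CDH5, KDR and VWF were all under 1 FPKM. Of the epithelial markers EPCAM alone was above that level, at 13.9 FPKM with shRNA63 against 14.4 FPKM in the control.

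The members spanned a wide range of expression, though not its upper end. TRH and JUP, at 109.8 and 109.6 FPKM in the control of the shRNA63 table, were above 92.7% and 92.6% of the genes tested there. UBASH3B at 43.1, TRIO at 28.7 and POU4F1 at 8.61 FPKM followed in the same control, then ROBO1 at 2.98 and PAX5 at 1.40 FPKM. ADRB1, PTGS2 and CAV1 lay at or near 0. Since no spread is held per group, it cannot be said which neighbours in this order differ. The plot of group levels shows these positions.

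**Figure D1:**
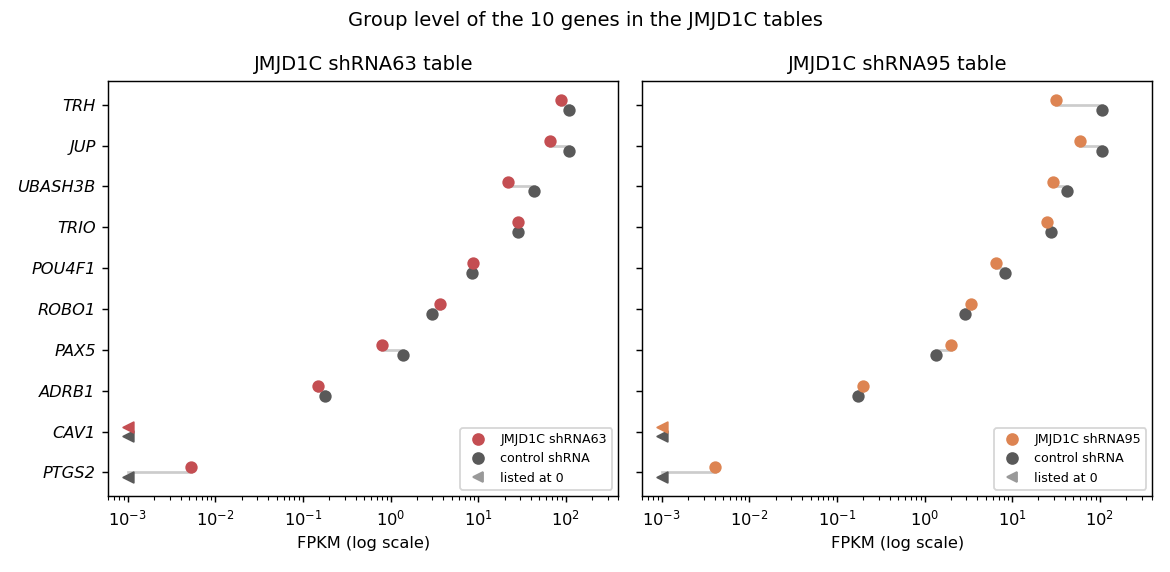
Group FPKM (log axis) of the 10 genes in both JMJD1C tables, with the shRNA group in colour above its control in grey and a triangle at the left edge for a gene listed at 0. In the controls TRH, JUP and UBASH3B sit highest, and ADRB1, CAV1 and PTGS2 sit under 0.2 FPKM in every group.

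UBASH3B was lower with shRNA63 and TRH was lower in the libraries labelled shRNA95, and no other member passed the authors' test in the 3 tables. The 7 members that were high enough entered the test in each table (UBASH3B, TRIO, TRH, JUP, ROBO1, POU4F1 and PAX5), and 3 did not because their values were too low. With shRNA63, 1 of the 7 was called lower and 0 higher, where 2.83% and 2.29% of all tested genes were called in those directions in the authors' deposited table. With shRNA95 it was again 1 lower and 0 higher, against 1.82% and 2.59% of all tested genes in the authors' deposited table. With the AML1-ETO shRNA 0 of the 7 were called lower and 0 higher in the authors' deposited table, where 0.187% and 0.223% of all tested genes were. At an unadjusted p under 0.05 the lower members numbered 2 (UBASH3B and JUP), 2 (TRH and JUP) and 1 (UBASH3B) in these 3 comparisons, against 6.67%, 5.1% and 3.2% of all tested genes. No member was higher at that limit, where 6.77%, 7.15% and 3.46% of all tested genes were. The shRNA63 and shRNA95 comparisons share their control libraries, so their values are given side by side and are not independent. In bulk RNA, fewer cells that express a gene and less of its RNA per cell cannot be told apart.

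**Figure D2:**
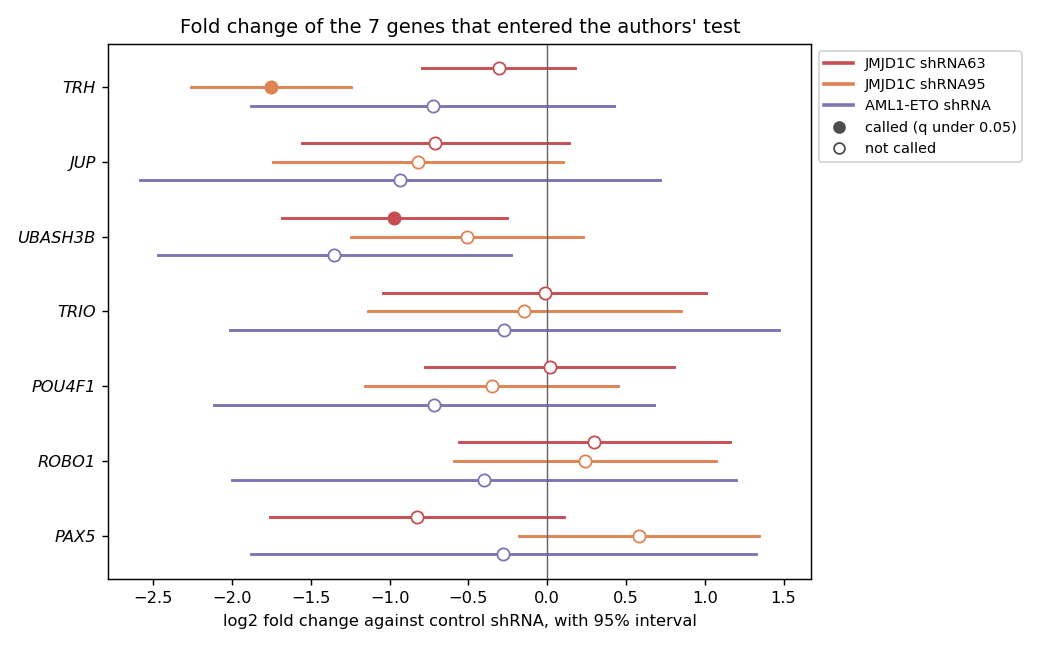
Authors' log2 fold change (horizontal axis) of the 7 tested genes for the JMJD1C shRNA63, JMJD1C shRNA95 and AML1-ETO shRNA comparisons, from top to bottom within each gene, with lines for the 95% interval and filled points for called genes. Only UBASH3B with shRNA63 and TRH with shRNA95 are filled, and the widest intervals belong to the AML1-ETO comparison.

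UBASH3B encodes STS-1, a phosphatase that shortens signalling by tyrosine kinases. Its level was 22.0 FPKM with shRNA63 against 43.1 FPKM in the control, and 29.4 FPKM with shRNA95 against 41.8 FPKM in the control. The level with the hairpin was the lower one in both tables, at 51.1% and 70.3% of control. The log2 fold change of UBASH3B was -0.97 with shRNA63 (error 0.36, q = 0.00981), -0.51 with shRNA95 (interval -1.25 to 0.23, q = 0.474) and -1.35 with the AML1-ETO shRNA (interval -2.47 to -0.23, p = 0.0157, q = 0.495) in the authors' deposited tables. The log2 fold change with shRNA63 minus that with shRNA95 was -0.46 (interval -1.49 to 0.56), which did not pass the test of the difference, so a change with shRNA63 alone is not shown. The deposited locus of UBASH3B (ENSG00000154127) runs on chromosome 11 from 122526383 to 122685181 in hg19. It also holds a snoU13 copy, listed at 12.3 FPKM with shRNA63 and at 0 in the control of that table. Positions given for each member are those of the deposited locus, which can cover other genes as well.

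TRIO encodes a guanine nucleotide exchange factor that activates the small GTPases RAC1 and RHOG. Its levels were 28.4 FPKM with shRNA63 against 28.7 FPKM in the control, and 25.2 FPKM with shRNA95 against 27.8 FPKM in the control. The group values are close in both tables, and TRIO was not called. Its log2 fold changes were -0.02 with shRNA63 (interval -1.04 to 1.01), -0.14 with shRNA95 (interval -1.14 to 0.85) and -0.27 with the AML1-ETO shRNA (interval -2.02 to 1.47) in the authors' deposited tables, so the intervals hold changes of 1 log2 unit downward in each. Of its partners, RHOG had unadjusted p-values of 0.0338 with shRNA63 and 0.00790 with shRNA95 in the authors' deposited tables, without a call. Of all tested genes 6.77% and 7.15% were higher at an unadjusted p under 0.05 there. RHOG levels were 85.6 and 88.5 FPKM with the hairpins against 66.2 and 64.2 FPKM in the controls of those tables. RAC1 had log2 fold changes of 0.04 (p = 0.827) and 0.21 (p = 0.305) with the hairpins in the authors' deposited tables, without a call. With the AML1-ETO shRNA RHOG was at 0.37 and RAC1 at -0.52 in the authors' deposited table. TRIO (ENSG00000038382) is placed on chromosome 5 from 14143811 to 14532235 in hg19. KALRN, the close relative of TRIO, was under 0.2 FPKM in both JMJD1C tables.

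TRH encodes the precursor of thyrotropin-releasing hormone, a peptide of the hypothalamus that acts on the pituitary. In the libraries labelled shRNA95 it fell to 31.6 FPKM, against 106.4 FPKM in the control, or 29.7% of control. With shRNA63 it stood at 88.6 FPKM against 109.8 FPKM in the control. The hairpin group was the lower one in both tables, with the wider gap under shRNA95. The log2 fold change of TRH was -1.75 with shRNA95 (error 0.26, q = 0.00216), -0.31 with shRNA63 (interval -0.79 to 0.18, q = 0.464) and -0.73 with the AML1-ETO shRNA (interval -1.88 to 0.43, p = 0.205) in the authors' deposited tables. Its rank from the lowest log2 fold change among tested genes was 169 with shRNA95 and 3872 with shRNA63. The gene (ENSG00000170893) is placed on chromosome 3 from 129693148 to 129696781 in hg19, with no other gene on its locus.

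The hairpins differed in TRH. The log2 fold change with shRNA63 minus that with shRNA95 was 1.44 (error 0.37, interval 0.72 to 2.16), with an adjusted p of 0.0142 over 17267 genes, where 0.840% of genes passed. With errors scaled to the deposited p in place of the statistic the adjusted p was 0.122, which ends the call. The deposited p of TRH with shRNA95 was 5e-05, the smallest the table holds, so that scaled error is an upper limit. JMJD1C mRNA had log2 fold changes of -1.15 with shRNA63 and -0.23 with shRNA95 in the authors' deposited tables. These differ by -0.92 (error 0.42, interval -1.75 to -0.09). In the test of the difference the unadjusted p was 0.0290 and the adjusted p 0.795, so JMJD1C did not pass. The receptor of the hormone, TRHR, and TRHDE, the enzyme that degrades it, were under 0.2 FPKM in both JMJD1C tables.

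ROBO1 and ADRB1 encode cell-surface receptors. ROBO1, a receptor for the Slit guidance proteins, had 3.67 FPKM with shRNA63 against 2.98 FPKM in the control, and 3.41 FPKM with shRNA95 against 2.89 FPKM in the control. It was the one tested member above its control with both hairpins, with log2 fold changes of 0.30 (interval -0.56 to 1.16) and 0.24 (interval -0.59 to 1.07) in the authors' deposited tables, and it was not called. ROBO1 (ENSG00000169855) is placed on chromosome 3 from 78646390 to 79816965 in hg19. With the AML1-ETO shRNA its log2 fold change was -0.40 (interval -2.00 to 1.20) in the authors' deposited table. Its relatives ROBO2 and ROBO4 and the ligand genes SLIT2 and SLIT3 were under 0.1 FPKM in both JMJD1C tables, while SLIT1 stood at 0.552 FPKM with shRNA63 against 0.658 FPKM in the control. ROBO3 was called higher with shRNA63, at 0.970 against 0.398 FPKM. The authors' deposited table gives it a log2 fold change of 1.28 (error 0.75). With shRNA95 its level was 0.340 FPKM against 0.386 FPKM in the control.

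ADRB1, the beta-1 adrenergic receptor, was too low to test. It was listed at 0.150 FPKM with shRNA63 against 0.179 FPKM in the control, and at 0.198 FPKM with shRNA95 against 0.174 FPKM in the control. ADRB1 (ENSG00000043591) is placed on chromosome 10 from 115803806 to 115806667 in hg19.

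JUP and CAV1 encode proteins of the cell membrane. JUP encodes plakoglobin, a junction protein and the close relative of beta-catenin. Its level was 67.0 FPKM with shRNA63 against 109.6 FPKM in the control, and 60.1 FPKM with shRNA95 against 106.2 FPKM in the control. Both hairpin groups were thus below control, at 61.1% and 56.6% of it. The log2 fold changes of JUP were -0.71 (error 0.43, p = 0.0160, q = 0.184), -0.82 (error 0.47, p = 0.00955, q = 0.140) and -0.93 (error 0.84, p = 0.209) in the authors' deposited tables, so none was called. The locus of JUP (ENSG00000173801), on chromosome 17 from 39775689 to 39943183 in hg19, holds 7 other genes in the tables, among them EIF1 at up to 494.4 FPKM in the shRNA63 table. Beta-catenin, CTNNB1, stood at 112.9 FPKM with shRNA63 against 84.9 FPKM in the control and at 79.3 FPKM with shRNA95 against 82.2 FPKM in the control, without a call. DSP, which encodes desmoplakin, a partner of plakoglobin in desmosomes, was listed at 0 in all 4 group values of the JMJD1C tables.

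CAV1, the coat protein of caveolae, was listed at 0 in all 4 group values of the JMJD1C tables and was not tested with the AML1-ETO shRNA. CAV1 (ENSG00000105974) is placed on chromosome 7 from 116164839 to 116201233 in hg19. PTRF, which encodes cavin-1, another coat protein of caveolae, was expressed nevertheless and was called lower in all 3 tables. It fell to 14.9 FPKM with shRNA63, against 26.0 FPKM in the control, and to 13.4 FPKM with shRNA95, against 25.2 FPKM in the control. The log2 fold changes of PTRF were -0.80 (error 0.26), -0.91 (error 0.26) and -4.58 (error 0.70) in the authors' deposited tables. The call with the AML1-ETO shRNA had q = 0.0178 in the authors' deposited table and is lost at a limit of 0.01.

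POU4F1 and PAX5 encode transcription factors. POU4F1, known as BRN3A, acts in sensory neurons and is a marker of leukemias with AML1-ETO. It stood at 8.70 FPKM with shRNA63 against 8.61 FPKM in the control, and at 6.54 FPKM with shRNA95 against 8.35 FPKM in the control. With shRNA63 the group values were nearly equal, with a log2 fold change of 0.01 (interval -0.77 to 0.80) in the authors' deposited table. The other log2 fold changes were -0.35 with shRNA95 (interval -1.15 to 0.45) and -0.72 with the AML1-ETO shRNA (interval -2.12 to 0.68) in the authors' deposited tables, and POU4F1 was not called. The deposited locus of POU4F1 (ENSG00000152192) runs on chromosome 13 from 79152611 to 79233314 in hg19. It is shared with RNF219, at up to 20.6 FPKM in the shRNA63 table, and is not the span of POU4F1 alone. POU4F2 and POU4F3 were under 0.1 FPKM in both JMJD1C tables.

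PAX5, the factor that sets B cell identity, had 0.789 FPKM with shRNA63 against 1.40 FPKM in the control, and 2.03 FPKM with shRNA95 against 1.36 FPKM in the control. It was thus below control with shRNA63 and above it with shRNA95, with log2 fold changes of -0.83 (error 0.48, p = 0.0537) and 0.58 (error 0.39, p = 0.279) in the authors' deposited tables. With the AML1-ETO shRNA it was -0.28 (interval -1.88 to 1.32) in the authors' deposited table. The difference between the hairpins was -1.41 (interval -2.61 to -0.20), with an adjusted p of 0.691 over all genes, so it did not pass. PAX5 (ENSG00000196092) is placed on chromosome 9 from 36833272 to 37034103 in hg19. Among the 5 B cell markers, MS4A1 and VPREB1 were listed at 0 in both groups of the JMJD1C tables. The summed level of the list was 8.56 FPKM with shRNA63 against 13.4 FPKM in the control, and 9.61 FPKM with shRNA95 against 13.0 FPKM in the control. CD79A, a target of PAX5 in B cells, was called lower with shRNA63, at 0.948 against 2.33 FPKM, and its log2 fold change was -1.30 (error 0.51, q = 0.0185) in the authors' deposited table, a call that is lost at a limit of 0.01. With shRNA95 its level was 2.11 FPKM against 2.26 FPKM in the control. Whether these markers bear on the values of PAX5 was not tested.

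PTGS2, the inducible cyclooxygenase of prostaglandin synthesis, was close to 0. It was listed at 0.00525 FPKM with shRNA63 and at 0.00405 FPKM with shRNA95, against 0 in the control of each table, and like ADRB1 it was not tested with the AML1-ETO shRNA. PTGS2 (ENSG00000073756) is placed on chromosome 1 from 186640923 to 186649559 in hg19. The constitutive enzyme PTGS1 was well expressed, at 37.1 FPKM with shRNA63 against 42.9 FPKM in the control and at 50.8 FPKM with shRNA95 against 41.6 FPKM in the control, without a call.

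Across the 7 tested members the median log2 fold change was -0.31 with shRNA63, -0.35 with shRNA95 and -0.72 with the AML1-ETO shRNA, beside 0.02, 0.04 and -0.01 for all tested genes in the authors' deposited tables. Values below 0 were held by 5, 5 and 7 of the 7 members, where 47.9%, 46.3% and 50.5% of all tested genes were below 0. The members were chosen with earlier results of these data known, so these medians and counts are a description and no test. The shRNA63 and shRNA95 counts are not independent, since they share control libraries. The 3 members too low to test are not in these counts. Errors in the AML1-ETO comparison, with 1 library a group, were from 0.57 to 0.89 for the members in the authors' deposited table, against 0.25 to 0.52 with shRNA63. UBASH3B is the member whose interval lay below 0 there.

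**Figure D3:**
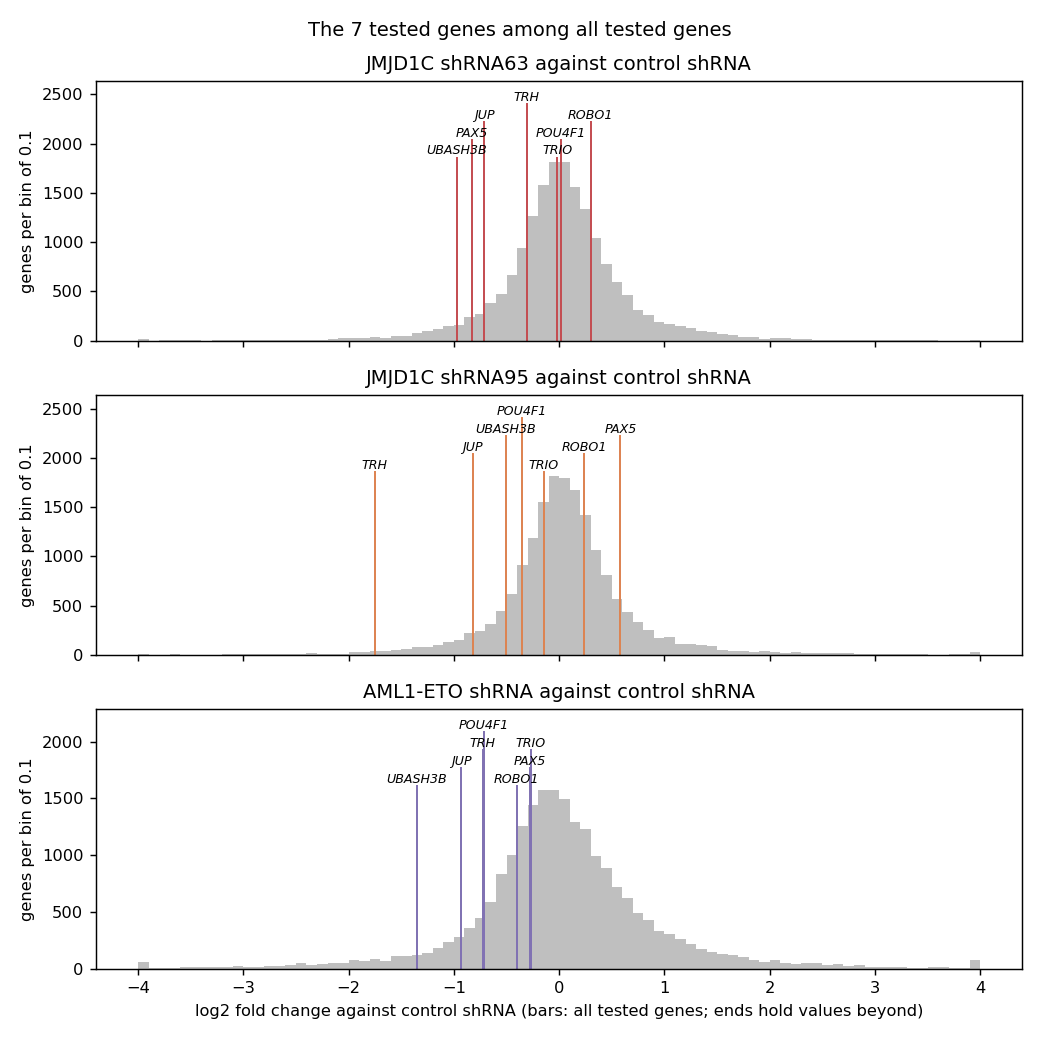
Number of tested genes per bin of 0.1 in log2 fold change (grey bars) for the 3 comparisons, with lines at the values of the 7 tested members. In the AML1-ETO panel UBASH3B, JUP, TRH and POU4F1 are the lowest members, at -1.35, -0.93, -0.73 and -0.72, with 5.01%, 8.65%, 12.3% and 12.4% of tested genes below them, and TRH is at -1.75 in the shRNA95 panel.

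Other genes reported as raised by AML1-ETO included the early response factor EGR1 and the ERK phosphatase DUSP6, each called lower with both hairpins. Of 11 tested genes of that list, 4 were called lower with shRNA63 (EGR1, DUSP6 and ID1 among them) and 1 higher (JAG1). Of all tested genes 2.83% were called lower and 2.29% higher there. The list had a median log2 fold change of -0.46 in the authors' deposited table. This list and those below were chosen with earlier results of these data known. In the libraries labelled shRNA95, 5 of 11 were called lower (DUSP6, SOX4, EGR1 and ID1 among them) and none higher. Of all tested genes 1.82% were called lower and 2.59% higher there. The list median was -0.60 in the authors' deposited table. DUSP6 had log2 fold changes of -1.62 (error 0.28) and -1.53 (error 0.28) with the hairpins in the authors' deposited tables. SOX4, a transcription factor of progenitors, was at 20.1 FPKM with shRNA95 against 48.0 FPKM in the control, and at 45.1 FPKM with shRNA63 against 49.5 FPKM in the control. With the AML1-ETO shRNA none of 14 tested genes of this list was called, where 0.187% of all tested genes were called lower and 0.223% higher. The list median was -0.92 in the authors' deposited table. DUSP6 had an unadjusted p of 0.00920 there, at -1.57 (error 0.58) in the authors' deposited table. CSF3R, a member of this list, was listed at 0 in the controls of the JMJD1C tables with a status that marks a failed estimate, and has no value there.

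Genes reported as repressed by AML1-ETO were all 15 tested in each table. With the AML1-ETO shRNA 11 of them had log2 fold changes above 0 and 4 below, CD48 being the lowest at -2.63. CSF1R, NFE2, OGG1 and IGFBP7 were at 2.56, 2.47, 2.39 and 2.36 there without a call. All of these lie above the list median, which is the value of SPI1. The next lower value was 0.53, for RUNX3, so the median does not stand for an even rise across the list. With the AML1-ETO shRNA the median was 2.17, and SPI1, CEBPE and CTSG were called higher in the authors' deposited table, 3 calls that are all lost at a limit of 0.01 for q. SPI1, which encodes PU.1, had log2 fold changes of 0.72, 1.63 and 2.17 with shRNA63, shRNA95 and the AML1-ETO shRNA in the authors' deposited tables, each called. With shRNA63, 3 were called higher (CSF1R, CTSG and SPI1) and 2 lower (LAT2 and CD48) in the authors' deposited table. With shRNA95, 4 were called higher (SPI1, CEBPE, RASSF2 and CTSG) and 1 lower (CD48) in the authors' deposited table. Of all tested genes 2.29% were called higher and 2.83% lower with shRNA63, and 2.59% and 1.82% with shRNA95. For the AML1-ETO shRNA these shares were 0.223% and 0.187%. The medians of the repressed genes with the hairpins were 0.12 and 0.04 in the authors' deposited tables. None of the 8 genes of the AML1-ETO complex was called in any table, with medians of 0.08, -0.19 and -0.26 in the authors' deposited tables. At an unadjusted p under 0.05 the complex had 1 gene with shRNA63, LMO2, and 0 in the other tables. Of 27 relatives and partners of the members, 12 were tested with each hairpin. With shRNA63, 2 were called higher (ROBO3 among them) and 2 lower (CD79A and PTRF), with shRNA95 1 higher and 1 lower (PTRF), and with the AML1-ETO shRNA PTRF alone of 15 tested in the authors' deposited tables.

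**Figure D4:**
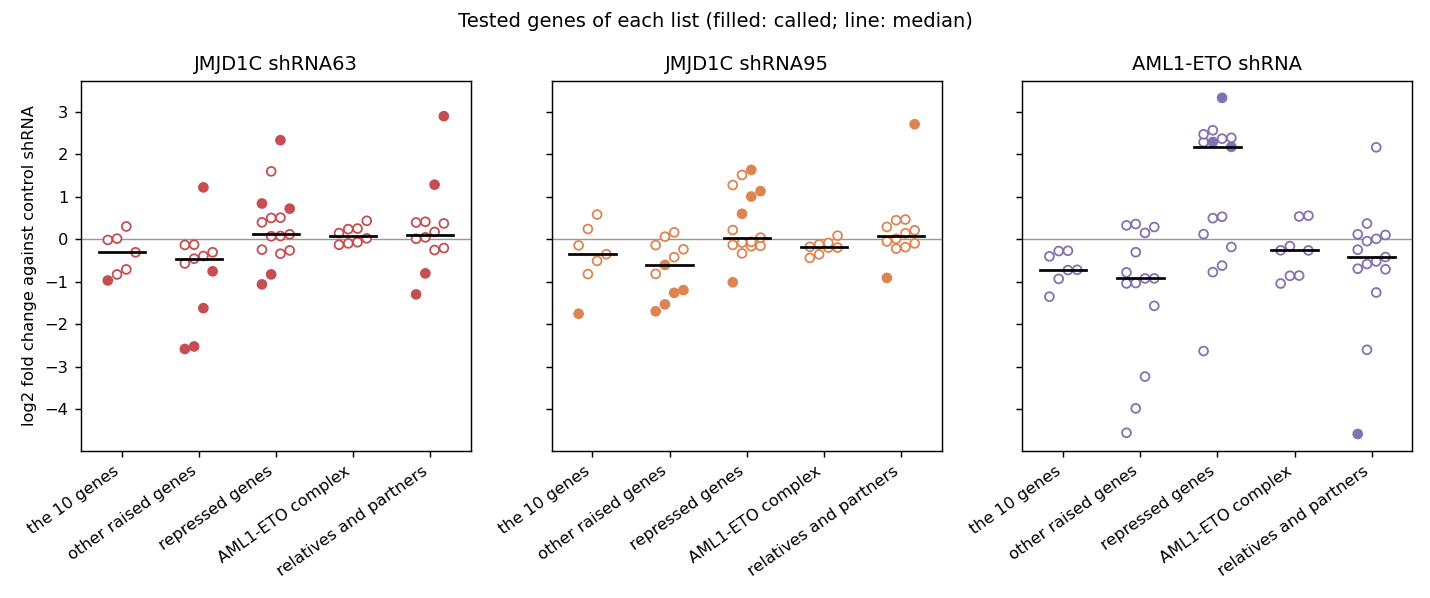
Authors' log2 fold change (vertical axis) of each tested gene in 5 gene lists for the 3 comparisons, filled where called, with a line at the list median. In the AML1-ETO panel the medians are -0.72 for the 7 tested members, -0.92 for other raised genes and 2.17 for repressed genes. The median of the repressed genes is the value of SPI1, and the next lower gene, RUNX3, is at 0.53.

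The genes nearest to each member were found by Euclidean distance over the 3 log2 fold changes, among 10739 protein-coding genes, as a description in 3 comparisons of which a pair share controls. UBASH3B was nearest to GPSM1 and PRRT3, at distances of 0.07 and 0.16, and JUP to PPTC7 and NAB1, at 0.12 and 0.16. TRH had no close neighbour, with RAPGEF3 at 0.39 and BCL2L1 at 0.40. For POU4F1, TRIO, ROBO1 and PAX5 the nearest genes were MED21, TOMM70A, SKP1 and CD3EAP, at 0.02, 0.03, 0.04 and 0.06.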

How the data were processed

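RNA sequencing of 6 Kasumi-1 libraries was available as group comparisons. The submitters' processing notes name TopHat2 2.0.8b, Cuffdiff 2.1.1 and hg19 without saying what each did. No source used here says whether counting used strand, so it is unknown whether reads of overlapping genes were told apart by strand. Per the file headers, the deposited tables are Cuffdiff comparisons of the authors. They hold FPKM of each deposited group, the authors' log2 fold change, the score the authors tested it with, and the deposited p-value and q-value. The AML1-ETO table has 2 columns of FPKM from libraries of an earlier series, which were not used.

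Calls used the deposited q-value under 0.05 among genes with status OK. Since no value per library was held, no test across libraries, exact or fitted, could be run, and the difference test rests on the authors' errors. The difference between hairpins was the difference of log2 fold changes over the root of summed squared errors, two-sided normal, with Benjamini-Hochberg adjustment over 17267 genes. Errors under the 10th percentile were raised to it, and the shared controls make these errors too wide. The deposited p-values are smaller than the statistic gives at the median gene of the JMJD1C tables. For genes of 20 to 100 FPKM with shRNA63 the median ratio of their normal deviate to the statistic was 1.42. Single genes can go the other way: PAX5 with shRNA95 had an error of 0.39 from the statistic and 0.54 from p. SciPy 1.17.1 and pandas 2.3.3 were used, and protein-coding genes were taken from GENCODE 29. The members and gene lists were chosen with earlier results of these data known. The text names every member, JMJD1C, RUNX1T1, the called genes of each list, up to 6 a comparison, except some that are not reported here, and some uncalled relatives chosen after their values were seen. Nearest genes are given as 2 for UBASH3B, JUP and TRH and 1 for the others. Alternatives were a limit of 0.01, a minimum of 1 FPKM, centring and pseudocounts of 1 and 0.1; for the AML1-ETO table those that need FPKM were not run, and centring on all tested genes was chosen after seeing the data.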

Additional observations from a re-analysis of the deposited data

Results flagged for a closer look

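TRH differed between the hairpins by a test of the difference itself: the log2 fold change with shRNA63 minus that with shRNA95 was 1.44 (error 0.37), with an adjusted p of 0.0142, and 0.122 with errors scaled to the deposited p. TRH stood at 80.8% of control with shRNA63 and at 29.7% in the libraries labelled shRNA95.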

How the results depend on the processing

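No paired analysis was possible because the tables hold 1 value per group and none per library, and for the same reason no replicate could be left out. The calls of UBASH3B with shRNA63 and of TRH with shRNA95 held at a limit of 0.01 and with p adjusted over genes of at least 1 FPKM, at adjusted p-values from 0.00828 to 0.00981 and from 0.00184 to 0.00216. At an unadjusted p under 0.05 the count of members lower was 2 with shRNA63, 2 with shRNA95 and 1 with the AML1-ETO shRNA, in place of 1, 1 and 0. With errors scaled to the deposited p the count of members that differ between the hairpins was 0 in place of 1, TRH having an adjusted p of 0.122, against 0.0121 when adjusted over genes of at least 1 FPKM. No member's log2 fold change or median changed sign under the alternatives run. In the gene lists 8 counts moved by over 1.5 times, and others by less. At a limit of 0.01 the calls of CSF1R, LAT2, ROBO3, CD79A and CD33 with shRNA63, of CTSG and ID1 with shRNA95, and of SPI1, CEBPE, CTSG, PTRF and CD34 with the AML1-ETO shRNA were lost. The higher calls of JAG1, ROBO3 and CSF1R, all under 1 FPKM, were lost when genes under that level were left out. Centring shifted log2 fold changes by at most 0.04. For the AML1-ETO table the minimum of 1 FPKM and the pseudocounts were not run, and centring used all tested genes, a choice made after seeing the data. Without read counts, what depth limits cannot be given, and the errors of members in the AML1-ETO comparison were 0.57 or more.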
